A study of Homo sapiens with 3 samples.

Results

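The H/ACA box small nucleolar RNA genes and the small Cajal body RNA genes were examined as the 129 genes whose names start with SNORA (105 genes) or SCARNA (24 genes), out of 23284 genes in the expression tables. The rule uses names only and no measured value. Expression was measured by RNA-seq in cells of the 293T line, which derives from human embryonic kidney and carries the SV40 large T antigen. All cells received dCas9-VP64, in which a Cas9 with no cutting activity is fused to the VP64 transcription activator. One library came from cells with the mock guide plasmid, which is the parental cloning vector, 1 from cells with sgL1ASP #1, and 1 from cells with sgL1ASP #3. These guide RNAs target the antisense promoter of LINE-1 (L1), the human retrotransposon. There were no replicates, so no test was possible and every difference below compares single libraries.

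H/ACA RNAs fold into a pair of hairpins joined by a hinge that holds box H, and carry box ACA near the 3′ end. Each carries the proteins dyskerin, NHP2, NOP10 and GAR1, and base-pairs with a target RNA so that dyskerin turns a chosen uridine into pseudouridine. The SNORA RNAs act mainly on ribosomal RNA in the nucleolus, and the SCARNA RNAs act on spliceosomal RNAs in Cajal bodies. Most human genes of these families lie in introns of other genes, called host genes, and the RNA is trimmed out of the excised intron. The mature RNAs have no poly(A) tail, whereas the libraries were made with an mRNA kit that selects poly(A) RNA. Signal at these genes can therefore also be RNA of the host gene that was read across the small RNA. Where both run on the same strand, the mature RNA and the host's RNA cannot be told apart here.

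The 293T markers NEFM, INA, VIM, KRT8 and KRT18 were expressed in every library, with VIM at 807, 904 and 862 FPKM in mock, sgL1ASP #1 and sgL1ASP #3. FPKM is the number of fragments scaled to the length of the gene and to the size of the library. NEFL was at 9.17, 9.61 and 9.08 FPKM. PAX2, a kidney transcription factor, was low, at 0.522, 0.654 and 0.658 FPKM. The blood markers PTPRC and CD3E and the red cell marker HBB were listed at 0 in every library. APOA1, a liver marker, was at 5.39, 3.36 and 3.82 FPKM, and ALB was at 0.467, 0.284 and 0.337 FPKM. The fibroblast marker COL1A1 was at 2.55, 1.99 and 2.46 FPKM.

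The sequences of 6 members are given first because the results turn on how short these RNAs are and on where they lie in their host genes. They are read 5′ to 3′ from GRCh37, the sequence also known as hg19, at the positions of GENCODE release 44 lifted to that build. SNORA70 had the highest mean FPKM over the libraries and lies at chrX:153628622-153628756 on the plus strand within RPL10. SNORA64 lies at chr16:2012974-2013107 on the minus strand within RPS2. SNORA21 lies at chr17:37009116-37009247 on the minus strand within RPL23. SNORA66 had a single read and lies at chr1:93306276-93306408 on the plus strand within RPL5. SNORA23 lies at chr11:9450320-9450501 on the plus strand within IPO7. SCARNA12, which had the most reads among the members whose reads could be recovered, lies at chr12:7076500-7076769 on the minus strand within PHB2. SNORA66 and SNORA23 lie within introns of every annotated transcript of their hosts, whereas SNORA70 overlaps an exon in 4 of 16 RPL10 transcripts, SNORA64 in 4 of 17, SNORA21 in 2 of 11 and SCARNA12 in 5 of 20. Capitals mark a match to ANANNA, the form of box H, that lies nearest the middle, and the triplet ACA where it stands 3 bases before the 3′ end.
SNORA70: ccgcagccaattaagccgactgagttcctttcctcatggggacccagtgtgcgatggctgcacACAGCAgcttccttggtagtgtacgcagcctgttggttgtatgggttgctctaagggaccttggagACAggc
SNORA64: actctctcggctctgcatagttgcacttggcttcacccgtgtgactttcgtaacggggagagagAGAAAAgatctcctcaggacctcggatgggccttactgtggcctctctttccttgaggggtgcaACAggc
SNORA21: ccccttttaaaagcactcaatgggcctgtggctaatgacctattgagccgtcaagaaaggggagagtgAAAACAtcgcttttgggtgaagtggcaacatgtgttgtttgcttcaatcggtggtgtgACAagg
SNORA66: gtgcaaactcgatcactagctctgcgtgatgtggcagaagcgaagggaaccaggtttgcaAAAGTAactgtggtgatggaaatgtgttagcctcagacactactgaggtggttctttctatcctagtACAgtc
SNORA23: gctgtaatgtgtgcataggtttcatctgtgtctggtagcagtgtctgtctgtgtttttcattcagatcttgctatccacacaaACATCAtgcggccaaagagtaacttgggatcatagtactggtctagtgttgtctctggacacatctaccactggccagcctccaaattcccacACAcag
SCARNA12: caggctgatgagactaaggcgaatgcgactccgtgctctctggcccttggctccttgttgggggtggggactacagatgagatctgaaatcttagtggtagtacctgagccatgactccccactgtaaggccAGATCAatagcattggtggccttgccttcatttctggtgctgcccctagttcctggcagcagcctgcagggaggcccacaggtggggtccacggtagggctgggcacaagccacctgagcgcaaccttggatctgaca

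Both boxes were searched on the strand of each gene in the 81 SNORA genes shorter than 150 bases that could be placed. The triplet ACA stood 3 bases before the end in 63 of them (77.8%), and ANANNA began between 35% and 60% of the length in 76 of them (93.8%). The window of the same length just before each gene served as background: it held ACA at that position in 0 of 81 and ANANNA in its middle in 35 of 81 (43.2%). Among the 18 SCARNA genes that could be placed, 9 had ACA at that position and 13 had ANANNA in the middle, against 0 and 9 of the windows before them. SCARNA12 had no ACA at that position. A match is a description of the letters and not a site.

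Fewer of these genes were above 0 than genes in general. In mock, 62 of the 129 members (48.1%, 95% Wilson interval 39.6 to 56.6) were listed at 0, against 28.5% of all genes. In sgL1ASP #1, 56 members (43.4%, interval 35.2 to 52.0) were at 0, against 28.3% of all genes. In sgL1ASP #3, 68 members (52.7%, interval 44.1 to 61.1) were at 0, against 29.4% of all genes. Above 0 in all 3 libraries were 42 members (32.6%), against 67.0% of all genes, while 27 members were above 0 in 2 libraries, 21 in 1 library and 39 in none. The share at 0 in every library was 30.2% for all members, 30.5% for SNORA names and 29.2% for SCARNA names, against 24.2% of all genes. The C/D box small nucleolar RNAs (SNORD names), which guide RNA methylation, were at 0 more often still, with 217 of 257 listed at 0 in every library and 13 above 0 in all 3.

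The members above 0 spanned a wide range of FPKM. In mock the 67 members above 0 ran from 1.35 FPKM (SCARNA2) to 1003 FPKM (SNORA70), with a median of 39.8 FPKM. In sgL1ASP #1 the 73 members above 0 had a median of 30.9 FPKM, and in sgL1ASP #3 the 61 members above 0 had a median of 35.2 FPKM. The FPKM of all members summed to 5514 for mock, 5349 for sgL1ASP #1 and 5746 for sgL1ASP #3.

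An FPKM of this size was made of very few reads. FPKM divides by the number of places where a fragment fits in the transcript. If fragments average 200 bases, which was assumed here and not measured, a gene of about 130 bases offers few of them. The values of the members fell on a ladder of whole reads when this effective length was computed from a normal fragment length of mean 200 and SD 80 with fragments under 73 bases left out. Of 137 placed values below 6.5 reads, 102 (74.5%) then lay within 0.1 of a whole number, and their median distance from it was 0.00556. The lower limit of 73 bases was picked after the values were seen, because it gave the smallest distance among the limits tried. Without any lower limit the share within 0.1 was 41.6%. Long genes with 1 transcript, which share no values with the members, gave depths, in units of 1000000 reads, of 11.1 for mock, 10.99 for sgL1ASP #1 and 9.25 for sgL1ASP #3 under the same model. The depths relative to mock, 0.987 and 0.831, came from the commonest ratio among genes under 0.3 FPKM in both libraries. That ratio was taken to be that of equal read numbers and needed no model of length.

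**Figure D1:**
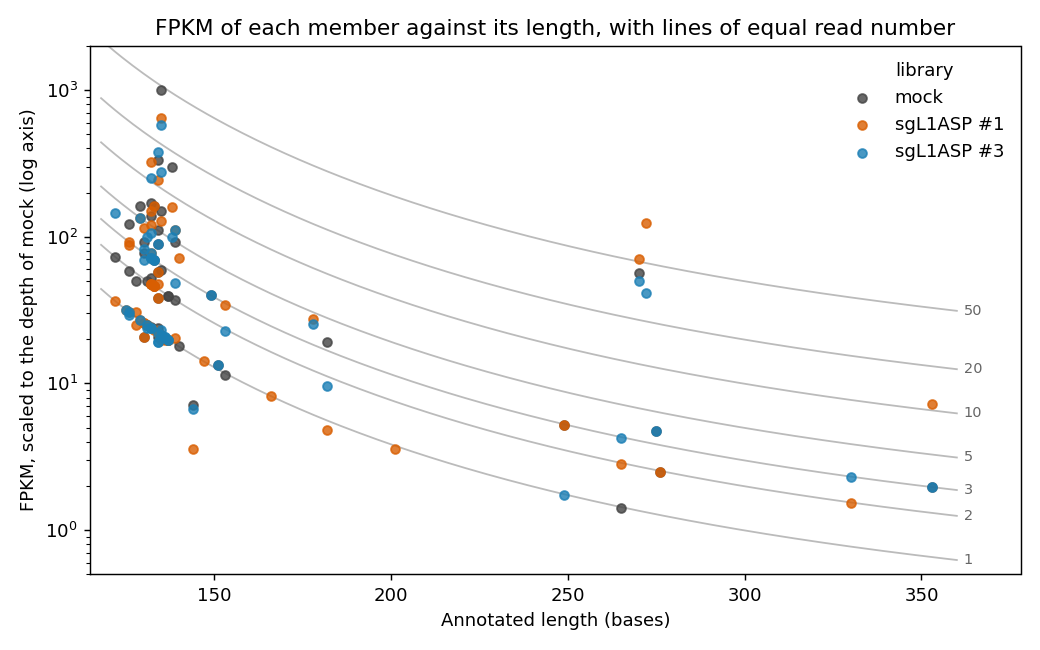
The horizontal axis gives the annotated length of each placed member in bases, and the vertical log axis gives its FPKM, scaled to the depth of mock, with a point for each library in which it was above 0. Grey lines join values of equal read number (1, 2, 3, 5, 10, 20 and 50 reads), and many members of about 130 bases lie on the lowest 3 of them, while the pair of points at 272 bases is SNORA71B and the points at 144 bases under the line of 1 read are SCARNA17, whose annotated lengths gave no whole reads that could be relied on.

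One read was worth 38.2 FPKM in mock for a gene as short as SNORA32 and a median of 22.2 FPKM over the placed members. Reads were recovered for 67 members. In mock, 48 of these had reads, 12 of them a single read and 33 of them at most 3 reads. In sgL1ASP #1, 23 of 54 had a single read and 40 had at most 3. In sgL1ASP #3, 19 of 43 had a single read and 31 had at most 3. For 18 further members the values stood in whole-number ratios between libraries, but their length was missing or did not match, and for 5 members above 0 no whole numbers were found (SCARNA13, SNORA7A, SNORA17, SNORA43 and SNORA81). A value of 0 allows up to 3 reads by the one-sided 95% limit (3.69 by the two-sided interval given for reads elsewhere), which is a median of 66.6 FPKM in mock, 67.4 FPKM in sgL1ASP #1 and 80.1 FPKM in sgL1ASP #3, so for a member of usual length 0 in one library and 50 FPKM in another could not be told apart at this depth. These limits and all intervals on reads cover counting error only, since reads without molecular identifiers are not independent molecules.

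Over the 67 members with recovered reads, the totals per 1000000 reads of the libraries lay within each other's counting intervals. Their reads summed to 241 in mock (95% Poisson interval 212 to 273), 234 in sgL1ASP #1 (205 to 266) and 191 in sgL1ASP #3 (165 to 220). Per 1000000 reads this was 21.7 (19 to 24.6) in mock, 21.3 (18.7 to 24.2) in sgL1ASP #1 and 20.7 (17.8 to 23.8) in sgL1ASP #3, and the 3 intervals overlapped. Estimated reads over all 109 placed members were 21.8 per 1000000 in mock, 30.1 in sgL1ASP #1 and 25.4 in sgL1ASP #3. These totals hold SNORA71B at its annotated length of 272 bases, with 93.2 and 31.1 estimated reads in the guide libraries, and without it they were 21.8, 21.7 and 21.99. The 3 members with the most reads, SCARNA12, SNORA70 and SNORA64, held 41.7% of the recovered reads over the libraries, and the 10 members with the most held 65.2%.

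The order of the members depended on whether FPKM or reads were ranked. SCARNA12, a scaRNA of 270 bases with both C/D and H/ACA parts, was at 56.8 FPKM in mock, 71.3 FPKM in sgL1ASP #1 and 60.2 FPKM in sgL1ASP #3. It ranked 21 among all members by mean FPKM and 1 by reads among the 67 members with recovered reads, with 42, 52 and 37 reads. SNORA70 was at 1003, 649 and 693 FPKM, which was 47, 30 and 27 reads at a length of 135 bases. SNORA70 thus stood highest in mock with either guide lower, at 0.647 times mock with sgL1ASP #1 (95% exact conditional binomial interval of the read ratio 0.395 to 1.04) and 0.691 times mock with sgL1ASP #3 (0.414 to 1.13). SNORA70 has 30 loci of the same name in the annotation, so how its reads were shared among copies is uncertain.

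**Figure D2:**
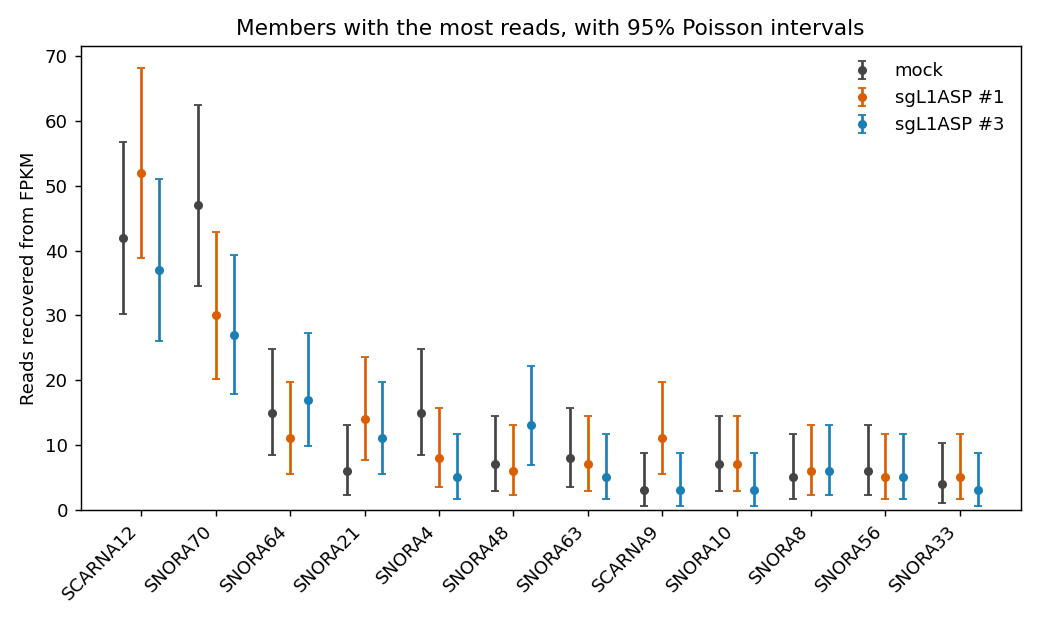
The 12 members with the most recovered reads stand along the horizontal axis, and the vertical axis gives the reads recovered from FPKM in each library, not scaled for depth, with bars for 95% Poisson intervals. SCARNA12 (42, 52 and 37 reads) and SNORA70 (47, 30 and 27 reads) stand above the rest, and the intervals of the libraries overlap for every member shown.

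The other 9 of the 10 members with the highest mean FPKM lie in SNHG12, RPS2, EIF4A1, RPL23, EIF4A2 and DKC1. SNORA61, in the noncoding host SNHG12, was at 543, 734 and 685 FPKM in mock, sgL1ASP #1 and sgL1ASP #3, in the ratio 21 to 28 to 22 reads, and was the highest member in sgL1ASP #1. SNORA64 in RPS2, a protein of the small ribosomal subunit, was at 332, 247 and 453 FPKM, or 15, 11 and 17 reads. Its neighbour SNORA10 in the same gene was at 161, 163 and 83.1 FPKM, or 7, 7 and 3 reads, so that sgL1ASP #3 was the highest library for SNORA64 and the lowest for SNORA10. SNORA67 and SNORA48 both lie in EIF4A1, an RNA helicase of translation initiation. SNORA67 was at 297, 241 and 453 FPKM, in the ratio 15 to 12 to 19, and SNORA48 was at 149, 130 and 334 FPKM, or 7, 6 and 13 reads. For both, sgL1ASP #3 was the highest library, at 1.52 and 2.23 times mock, and the interval of the SNORA48 read ratio ran from 0.829 to 6.62.

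SNORA21, SNORA56, SNORA63 and SNORA4 complete the members with the highest mean FPKM. SNORA56 lies in DKC1, the gene for dyskerin itself, and was at 162, 136 and 162 FPKM, or 6, 5 and 5 reads. SNORA63 and SNORA4 lie in EIF4A2, another initiation helicase. SNORA63 was at 171, 151 and 128 FPKM, or 8, 7 and 5 reads. SNORA4 was at 297, 161 and 119 FPKM, or 15, 8 and 5 reads, and is described with the members past the threshold below, as is SNORA21. SNORA81, the third member in EIF4A2, was at 0, 28.0 and 30.8 FPKM, values that did not reduce to whole reads. SNORA63 and SNORA4 were thus highest in mock, where SNORA81 was at 0, while EIF4A2 itself was at 110, 122 and 120 FPKM.

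Among members above 0 in every library, 7 with at most 5 reads in each are given as examples, and the library with the most reads changed from one to the next. SNORA33 in RPS12 had 4, 5 and 3 reads in mock, sgL1ASP #1 and sgL1ASP #3, and SNORA84 in IARS, a tRNA synthetase gene, had 3, 2 and 3. SNORA26 in the noncoding host DANCR had 2, 1 and 4 reads, at 72.8, 36.9 and 175 FPKM, and SNORA45 in RPL27A had 2, 1 and 4 reads. SNORA27 in RPL21 had 4, 3 and 1 reads, at 122, 92.8 and 36.7 FPKM. SNORA52 in RPLP2 had 5, 1 and 4 reads, at 111, 22.4 and 107 FPKM, and was the member with the lowest ratio of sgL1ASP #1 to mock among those above 0 in all 3 libraries. SNORA46 in CNOT1, a scaffold of the deadenylase complex, had 1 read in every library, and its FPKM of 21.3, 21.6 and 25.7 differed by the depth of the libraries alone.

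How many members passed the 1.5-fold threshold was compared with all genes, counting genes above 0 in both libraries of a ratio. With sgL1ASP #1, 14 of 55 members were more than 1.5-fold higher than in mock and 15 were more than 1.5-fold lower, against 5.88% and 5.99% of all genes. With sgL1ASP #3, 13 of 49 members were higher and 16 lower, against 5.73% and 6.24% of all genes. With libraries scaled to the same FPKM sum, the counts were 11 higher and 18 lower with sgL1ASP #1 and 12 higher and 17 lower with sgL1ASP #3. No share of all genes was counted under that scaling. It put the median log2 change of genes with a mean of at least 1 FPKM at -0.09 with sgL1ASP #1 and -0.12 with sgL1ASP #3. On the deposited values, shares of members past the threshold were thus above the background in both directions. The balance of higher and lower members changed with the threshold, since 2-fold gave 11 higher and 6 lower with sgL1ASP #1 and 10 higher and 7 lower with sgL1ASP #3. No share of all genes was counted at 2-fold, so these counts have no background. At 1.5-fold, SNORD genes gave 6 higher and 2 lower of 18 with sgL1ASP #1, and genes of at most 200 bases outside the members, SNORD genes included, gave 9 higher and 4 lower of 28. With sgL1ASP #3 these sets gave 5 higher and 2 lower of 15 and 5 higher and 4 lower of 25.

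For most of these members with known reads, the call rested on a single read. Of the 11 members higher with sgL1ASP #1 whose reads were known, 10 had at most 3 reads in one of the libraries, and moving 1 read in 1 library ended the call for 6. Of the 11 lower with sgL1ASP #1, 9 had at most 3 reads and 8 lost the call with 1 read. With sgL1ASP #3, 3 of 8 higher and 9 of 12 lower members lost the call with 1 read. Exact 95% intervals of the read ratio were computed for the 40 members with recovered reads above 0 in mock and sgL1ASP #1 and for the 35 with sgL1ASP #3, and 0 of them lay entirely above or below 1. Of the members with recovered reads that were at 0 in one of the libraries compared, 22 with sgL1ASP #1 and 21 with sgL1ASP #3, the other library had at most 4 and 3 reads, and 0 of their intervals lay entirely above or below 1. Differences between libraries of the size of these ratios were therefore not detectable for these single members at this depth.

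Of the 42 members above 0 in all 3 libraries, 5 exceeded 1.5 times mock with both guides, against 2.63% of all genes, and 6 were more than 1.5-fold lower with both, against 2.19%. SNORD genes gave 3 higher and 0 lower of 13, and the genes of at most 200 bases outside the members gave 2 higher and 0 lower of 18. Both guides were set against the same mock library, so a mock value that is low or high by counting error moves both ratios. With the same FPKM sum the counts were 4 and 8. At a 2-fold threshold they were 4 higher and 1 lower, and with genes at 0 counted 12 higher and 16 lower. No share of all genes was counted for both guides under these settings. For the calls at 1.5-fold on deposited values, moving 1 read ended the call for 3 of the 4 higher and 3 of the 4 lower members with known reads.

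**Figure D3:**
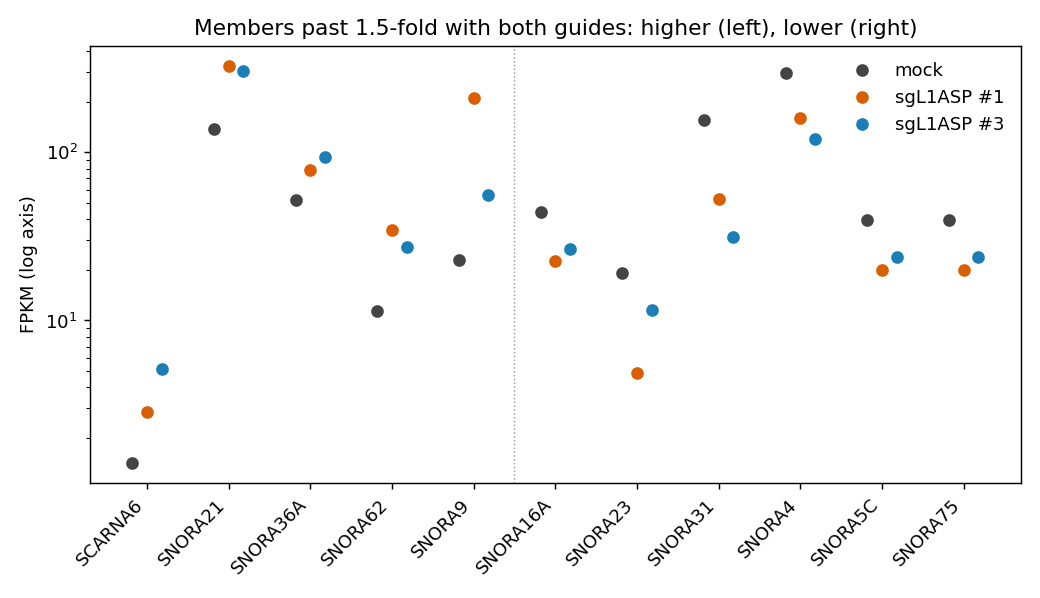
The 11 members past 1.5-fold with both guides stand along the horizontal axis, the 5 higher ones left of the dotted line and the 6 lower ones right of it, and the vertical log axis gives their FPKM in each library. SNORA9 is farthest from mock with sgL1ASP #1 (23.0 against 210 FPKM), and the lower members SNORA5C, SNORA75 and SNORA16A share nearly the same pattern of 2 reads or units in mock and 1 in each guide.

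Among the higher members, SNORA9 in the noncoding host SNHG15 was at 23.0 FPKM in mock, 210 FPKM in sgL1ASP #1 and 55.4 FPKM in sgL1ASP #3. These values stood in the ratio 1 to 9 to 2, and the mock value was that of 1 read at 133 bases, the length of SNORA84, whose 3 reads gave 69.0 FPKM. With 1, 9 and 2 reads the ratio of sgL1ASP #1 to mock was 9.12 with an interval of 1.26 to 400, and that of sgL1ASP #3 was 2.41 with an interval of 0.125 to 142. SNORA9 was not among the 40 members with recovered reads because its place was not found. SNHG15 was at 94.4, 102 and 94.7 FPKM.

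SNORA21 in RPL23, a protein of the large ribosomal subunit, was at 138, 326 and 305 FPKM, or 6, 14 and 11 reads. Both guides stood above mock by 2.36 and 2.21 times, with intervals of 0.853 to 7.50 and 0.748 to 7.27. SNORA36A, which like SNORA56 lies in DKC1, was at 51.9, 78.6 and 93.4 FPKM, or 2, 3 and 3 reads. SNORA62 in RPSA was at 11.4, 34.7 and 27.4 FPKM, or 1, 3 and 2 reads. SCARNA6, a scaRNA with C/D and H/ACA parts in the autophagy gene ATG16L1, was at 1.42, 2.87 and 5.12 FPKM, or 1, 2 and 3 reads. In all of these mock was the lowest library, with 1 or 2 reads in all but SNORA21.

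Among the lower members, SNORA4 had the most reads, with 15 in mock, 8 in sgL1ASP #1 and 5 in sgL1ASP #3. Its ratios to mock were 0.540 (interval 0.198 to 1.36) and 0.401 (0.114 to 1.16). SNORA31 in TPT1, which encodes a translationally controlled tumour protein, was at 155, 52.4 and 31.1 FPKM, in the ratio 6 to 2 to 1. It was the member lowest against mock with sgL1ASP #3 among the 11, at 0.201 times mock, and it has 26 loci of the same name. SNORA23 in IPO7, a nuclear import receptor, was at 19.1, 4.85 and 11.5 FPKM, or 4, 1 and 2 reads at 182 bases. SNORA5C in TBRG4 was at 39.7, 20.1 and 23.9 FPKM, SNORA75 in NCL, the gene for nucleolin, was at 39.7, 20.1 and 23.9 FPKM, and SNORA16A in SNHG12 was at 44.3, 22.4 and 26.7 FPKM. Each of these 3 was in the ratio 2 to 1 to 1, the smallest step down that 2 reads allow.

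Members at 0 in exactly 1 library carried the largest apparent contrasts. SNORA71B was at 0 FPKM in mock, 125 FPKM in sgL1ASP #1 and 49.5 FPKM in sgL1ASP #3, in the ratio 3 to 1 between the guides. At 136 bases, the length of SNORA80, the values were 5.99 and 1.997 reads, whereas at the 272 bases of its annotated model they would be 93.2 and 31.1 reads, so its read number rests on which length was used. With 6 reads in sgL1ASP #1 against 0 in mock the lower bound of the read ratio was 1.19, and with 93 reads it was 25.0. With sgL1ASP #3 the lower bound was 0.226 for 2 reads and 9.52 for 31 reads. SNORA72 in RPL30 was at 71.7, 0 and 86.3 FPKM, or 3, 0 and 3 reads. SNORA20 in TCP1, a chaperonin subunit, was at 24.1, 121 and 0 FPKM, or 1, 5 and 0 reads. SNORA78 in SNHG9 was at 29.3, 0 and 106 FPKM, in the ratio 1 to 0 to 3, and SNORA5A in TBRG4 was at 88.7, 0 and 26.7 FPKM, or 4, 0 and 1 reads. The library at 0 was mock for 1 of these 5, sgL1ASP #1 for 3 and sgL1ASP #3 for 1. Over all 27 members at 0 in exactly 1 library it was mock for 7, sgL1ASP #1 for 7 and sgL1ASP #3, the library of lowest depth, for 13. SNORA66 in RPL5 was above 0 in 1 library only, at 23.4 FPKM in sgL1ASP #1, which was 1 read (Poisson interval 0.0253 to 5.57).

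The members longer than 200 bases had the finest resolution, since 3 reads of SCARNA9 amounted to 1.96 FPKM in mock. SCARNA9, a C/D guide of 353 bases for the U2 spliceosomal RNA, was at 1.96, 7.28 and 2.36 FPKM, or 3, 11 and 3 reads, and sgL1ASP #1 stood at 3.71 times mock with an interval of 0.981 to 20.7. SCARNA5, which lies in ATG16L1 beside SCARNA6, was at 2.48, 2.51 and 0 FPKM, or 2, 2 and 0 reads, while SCARNA6 was highest in sgL1ASP #3. SCARNA7 in KPNA4 was at 0, 1.56 and 2.78 FPKM, or 0, 2 and 3 reads. SCARNA13 in the noncoding host SNHG10 was at 4.77, 0 and 5.69 FPKM, near 3.7 reads in each library above 0. SNORA53 in SLC25A3 was at 5.19, 5.26 and 2.08 FPKM, or 3, 3 and 1 reads, and SNORA74B in ATP6V0E1 was at 0, 3.602 and 0 FPKM, or 0, 1 and 0 reads. Of the 10 placed members over 200 bases, 4 were above 0 in all 3 libraries and 1 in none, and of the 92 under 150 bases 27 were above 0 in all 3 and 33 in none.

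The libraries ranked the members less alike than they ranked genes in general. Over the 129 members, Spearman's rank correlation was 0.656 between mock and sgL1ASP #1, 0.655 between mock and sgL1ASP #3 and 0.599 between the guides. Over the 24 SCARNA names alone it was 0.294, 0.479 and 0.462, against 0.697, 0.689 and 0.627 over the SNORA names. Among members above 0 in both libraries the order was the opposite, with 0.673, 0.881 and 0.733 over 10, 8 and 9 SCARNA names and 0.658, 0.740 and 0.635 over 45, 41 and 40 SNORA names. Over all members Pearson's r of log2(FPKM + 0.1) was 0.616, 0.631 and 0.563. Over all 23284 genes the rank correlation was 0.974, 0.973 and 0.972, and over the 257 SNORD names it was 0.629, 0.540 and 0.664. Among genes above 0 in both libraries it was 0.765, 0.810 and 0.721 for members and 0.995 in each pair for all genes. For the 18, 15 and 18 SNORD names above 0 in both it was 0.959, 0.982 and 0.944, nearer to all genes than to the members. These are correlations across genes, which share library and depth and are not replicates. Among the members above 0 in both libraries the median absolute log2 ratio was 0.60, 0.73 and 0.83, against 0.12, 0.12 and 0.12 for all genes. The pair of guides was no closer than either was to mock. The median log2 change of the 129 members was 0 with both guides. Of these members, 44 with sgL1ASP #1 and 50 with sgL1ASP #3 were at 0 in both libraries of the ratio. Such ties also enter the median of 0 over all genes, so these medians say little about change. For the 42 members above 0 in all 3 libraries the median was 0.02 and 0.04. Genes with a mean of at least 1 FPKM gave 0.0008 and 0.0015.

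A host gene was found for 119 of the 129 members, in 95 hosts. For 101 members the host was matched on the same strand, and for 18 it was a spanning neighbour matched without strand. Members of abundant hosts were above 0 more often. Of the 50 members in hosts with a mean of at least 100 FPKM, 43 were above 0 in at least 1 library and 27 in all 3. Of the 48 in hosts of 10 to 100 FPKM, 34 were above 0 in at least 1 library and 11 in all 3. Of the 21 in hosts under 10 FPKM, 6 were above 0 in at least 1 library and 1 in all 3. That 1 was SNORA27, whose host RPL21, a ribosomal protein gene with many near-identical copies, was listed at 0.0246, 0.0247 and 0.0245 FPKM, so the level of this host is uncertain. Spearman's rank correlation between member and host mean FPKM was 0.616 over the 119 members, some of which share a host. Members that overlap host exons were also above 0 more often. Of the 40 members that overlap an exon of some host transcript, 36 were above 0 in at least 1 library, against 32 of the 61 that lie within introns of every host transcript. Host level and exon overlap were not separated here.

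An abundant host did not ensure signal at its member. SNORA69 was at 0 in every library although its host RPL39 had a mean of 675 FPKM, and at 132 bases 3 reads would have been 71.8 FPKM in mock. SNORA14B in TOMM20 (mean 169 FPKM), SNORA3 in RPL27A (161 FPKM) and SNORA15 in CCT6A (112 FPKM) were also at 0 throughout. TAF1D, a subunit of the RNA polymerase I selectivity factor, holds 6 members and was at 101, 117 and 99.0 FPKM. SNORA8 was the highest of them, at 92.3, 112 and 133 FPKM, or 5, 6 and 6 reads. SNORA40 had 2, 3 and 1 reads, SNORA18 had 1, 2 and 1, SNORA25 had 1, 2 and 0, and SNORA1 had 3, 1 and 0. SNORA32 was at 0 in every library. No order of the libraries was shared by all of the members of this host.

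Ratios of host genes spanned a narrower range than those of their members. For the 39 members above 0 in all 3 libraries that have a host, the log2 change of log2(FPKM + 0.1) ran from -2.30 to 3.18 with sgL1ASP #1 and from -2.31 to 2.26 with sgL1ASP #3. Their hosts ran from -0.13 to 0.21 and from -0.11 to 0.31. The members' ratios rest on few reads. The highest, 3.18, was that of SNORA9, whose interval excluded 1 if its values are 1 and 9 reads, while 0 of the intervals over recovered reads did. Over all 95 hosts the median log2 change was 0.01 with sgL1ASP #1 and -0.0011 with sgL1ASP #3. Past 1.5-fold were 5.88% (higher) and 5.99% (lower) of all genes with sgL1ASP #1, and 5.73% and 6.24% with sgL1ASP #3. Whether the share of hosts past 1.5-fold differs from that of genes at their level was not tested. Of the 12830 genes with a mean of at least 1 FPKM, 245 were higher and 249 lower with sgL1ASP #1, and 245 and 279 with sgL1ASP #3. Among hosts above 0 in both libraries, 1 was past 1.5-fold with sgL1ASP #1. This was HTR2C, which was higher, at 0.0428 FPKM in mock and 0.0867 FPKM with the guide. With sgL1ASP #3, HTR2C was higher, at 0.129 FPKM, and RAB30 and FSD2 were lower. RAB30 was at 1.57, 1.31 and 0.657 FPKM and FSD2 at 0.0833, 0.0844 and 0.0501 FPKM. FSD2 was matched to SCARNA15 without strand, so it may not be the host of that member. These hosts were named after their values were seen.

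The genes for the proteins of these RNAs were within 1.5-fold of mock with both guides, apart from SMN1. The list held 20 genes found in the tables, and 0 were more than 1.5-fold higher with either guide, against 5.88% and 5.73% of all genes. With sgL1ASP #1 0 were lower, against 5.99%, and with sgL1ASP #3 1 was, against 6.24%, which for a list of this size is near the background. It was SMN1, at 1.35, 1.59 and 0.683 FPKM, a gene with a near-identical copy, SMN2, so that its share of reads is uncertain. The median log2 change was 0.01 with sgL1ASP #1 and -0.05 with sgL1ASP #3, and both were below 0 when the libraries were scaled to the same FPKM sum. Of the core proteins, DKC1 (dyskerin) was at 110, 110 and 108 FPKM, NHP2 at 207, 217 and 218 FPKM, NOP10 at 186, 176 and 199 FPKM and GAR1 at 29.7, 30.4 and 27.4 FPKM. Their order, with NHP2 highest and GAR1 lowest, was the same in every library.

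The assembly factors covered a wide range of levels. NAF1, which holds the place of GAR1 in the nascent particle, was at 11.7, 11.6 and 10.2 FPKM, and SHQ1, a chaperone of dyskerin, was at 13.1, 11.9 and 12.3 FPKM. The ATPases RUVBL1 and RUVBL2 were at 79.7, 71 and 79.4 FPKM and at 146, 149 and 146 FPKM. PIH1D1, which works with them, was at 74.6, 81 and 75.5 FPKM, and NUFIP1 was the lowest at 3.45, 3.94 and 3.39 FPKM. The ratios to mock ran between the extremes of 1.14 for NUFIP1 with sgL1ASP #1 and 0.867 for NAF1 with sgL1ASP #3.

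The Cajal body genes and the genes of RNA ends gave a like picture. WRAP53, which brings scaRNAs to Cajal bodies, was at 20.7, 22.1 and 21.2 FPKM, COIL, the gene for coilin, at 22.7, 22.1 and 22.8 FPKM, NOLC1, a phosphoprotein of the nucleolus and Cajal bodies, at 122, 120 and 116 FPKM and GEMIN2, a partner of SMN1, at 25.3, 23.1 and 28.7 FPKM. PARN, a deadenylase that trims H/ACA RNA ends, was at 18.2, 17.7 and 17.0 FPKM. PAPD5 (now TENT4B), which adds adenosines to such ends, was at 4.49, 4.94 and 4.10 FPKM. TOE1, a 3′ exonuclease, was at 12, 11.2 and 11.3 FPKM, TGS1, a cap methyltransferase, at 11.0, 11.2 and 10.5 FPKM and DGCR8, a partner of the nuclease Drosha, at 25.5, 25.9 and 23.5 FPKM. No gene of this list apart from SMN1 left the range between 1.5-fold lower and 1.5-fold higher with either guide.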

How the data were processed

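Total RNA from each of the 3 samples was prepared by the authors as stranded poly(A) libraries and sequenced in 75-base single-end mode. Per the labels and the methods, reads were mapped to hg19 with TopHat2 2.0.13, Bowtie2 2.2.3 and SAMtools 0.1.19, and the deposited values are FPKM per gene from Cuffdiff of Cufflinks 2.2.1 in strand-specific mode. The gene annotation is not given in the sources used here. The members and lists were chosen with earlier results of these data known.

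FPKM were used as deposited, and library depths were inferred from them and not counted from mapped reads. Ratios had no pseudocount and used genes above 0, and log2 changes used a pseudocount of 0.1. Members were placed on GENCODE 44 lifted to GRCh37 by transcript name (109 of 129). The host was the shortest protein-coding or noncoding gene on the same strand that spans the member. For members without a place it was the spanning neighbour in NCBI RefSeq for GRCh38.p14, matched without strand, from which no coordinates were used. Reads were FPKM × depth × effective length. They were accepted where all values lay within 0.1 of whole numbers, or where the libraries stood in whole-number ratios (tolerance 0.5%) and the length fitted within 20%. The read recovery and the fold counts were run on simulated data. The simulated reads used the same lengths, depths and fragment model as the recovery, so this checked the calculation and not those settings.

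The members named are SNORA71B, SNORA66, SNORA9 and SNORA23, the 10 with the highest mean FPKM, those past 1.5-fold with both guides, the 5 highest of those at 0 in 1 library, those over 200 bases above 0, their hosts and the protein list. Others, such as those at 0 in abundant hosts, in TAF1D or with few reads in every library, were named after their values were seen. The scripts ran in Python 3.11.15, with SciPy 1.17.1 for intervals, pandas 2.3.3 and NumPy 2.4.6 for tables, and matplotlib 3.10.9 for figures.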

Additional observations from a re-analysis of the deposited data

How the results depend on the processing

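No paired analysis was possible because no condition had a second library. Counting genes at 0 or adding a pseudocount of 0.1 or 1 raised the members past 1.5-fold to 32 higher and 27 lower with sgL1ASP #1, 25 higher and 34 lower with sgL1ASP #3, and 12 higher and 16 lower with both. These settings count members at 0 in a library, which the report's ratios leave out. With genes at 0 counted, 1650 of all 23284 genes were higher and 1615 lower with sgL1ASP #1, and 1482 and 1762 with sgL1ASP #3. The share of all genes past 1.5-fold with both guides was not counted this way. A 2-fold threshold left 11 higher and 6 lower with sgL1ASP #1, 10 higher and 7 lower with sgL1ASP #3, and 4 higher and 1 lower (SNORA31) with both. No share of all genes was counted at that threshold. Above 0 in all 3 libraries were 6 members when SCARNA names alone were kept. Rank correlations among members above 0 in both libraries were 0.765 for mock and sgL1ASP #1, 0.810 for mock and sgL1ASP #3 and 0.721 for the guides. Over all 24 SCARNA names, those at 0 included, an alternative added after the data were seen, the correlations were 0.294, 0.479 and 0.462. The other alternatives stayed within 1.5 times of each count, within the interval of each share, within 1.5-fold of each median and within 0.1 of each correlation. Scaling to the same FPKM sum shifted the median of genes with a mean of at least 1 FPKM by -0.09 with sgL1ASP #1 and -0.12 with sgL1ASP #3 (log2). The host medians moved to -0.06 and -0.12 and the protein gene medians to -0.08 and -0.17, close to that shift.

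The median number of reads per value above 0 was 3.96 with no shortest fragment, 8.94 with a mean fragment of 150 bases, 1.25 with 250 bases, and 1.997 with fragments under 73 bases left out, the setting added after the data were seen. The share within 0.1 of whole numbers was 41.6%, 20.5%, 9.22% and 74.5%. Read numbers rest on that setting and on GENCODE lengths, which may differ from those the authors used. Most values were 1 to 3 reads and each condition had 1 library. No interval of a ratio of recovered reads to mock excluded 1. Of members without recovered reads, SNORA9 did with sgL1ASP #1 if its values are 1 and 9 reads, and SNORA71B did with sgL1ASP #1 at either length and with sgL1ASP #3 at 272 bases only. For the 5 members with no whole numbers no interval was computed. Nor was one computed for SCARNA2, SCARNA9L, SCARNA15, SNORA58, SNORA76 and SNORA78 with the guide in which each was at 0.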

Other observations

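TERC, the telomerase RNA, is an H/ACA RNA that the names used here do not cover. It was looked up after the other values were seen, and was listed at 0.392 FPKM in mock, 0.397 FPKM in sgL1ASP #1 and 0 FPKM in sgL1ASP #3. Of the 8 members with 10 or more loci of their name, which include SNORA70, SNORA31, SNORA48 and SNORA63, 8 were above 0 in at least 1 library and 7 in all 3. Of the 63 members with a single locus of their name, 42 were above 0 in at least 1 library and 15 in all 3. How the reads of repeated copies were shared was not tested.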
